A study of Zea mays with 4 samples.

Results

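The regions described here are the ZmICE1a CUT&Tag sites of the distal chromosome arms of maize. A shared region was formed wherever peaks of both deposited lists overlapped by at least 1 bp, and it was placed by the list 1 summit. Of the 10114 shared regions on chromosomes 1 to 6 and 8 to 10, 3204 had their summit in the first or the last 20 Mb of the chromosome, 1471 in the first and 1733 in the last. The other 6910 regions of the same 9 chromosomes served as the rest, and all of chromosomes 1 to 10 together held 11310 shared regions. The end of a chromosome was taken as the last peak end in either list, so a distance from that end is counted from the outermost peak and not from the telomere.

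The libraries came from endosperm of a mutant (2 libraries) and of the wild type (2 libraries), with biological replicates 1 and 2 of each genotype. The labels call the genotypes mutant and wildtype and give neither the allele nor the age of the kernels. Peak list 1 is named for both genotypes of replicate 1 and peak list 2 for both genotypes of replicate 2, and which of its libraries served as treatment and which as control was not stated. The genotypes therefore were not compared. Independence of one list from the other was not shown, so their values stand side by side with no SD between them.

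ZmICE1a is a maize member of the ICE1 family of basic helix-loop-helix transcription factors, which bind short E-box motifs in DNA. In Arabidopsis, ICE1 is known for inducing CBF genes in the cold and for its part in stomatal development. The endosperm is the starch- and protein-storing tissue of the kernel. In maize, genes and meiotic crossovers are concentrated towards the chromosome ends, whereas repeats make up most of the sequence around the centromeres. CUT&Tag marks a bound site by the transposase that an antibody brings to it, so a site appears as a pile of fragments above the control.

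The distal ends held shared regions at about 2 times the density of the rest, but the individual ends differed widely. The density was 8.90 regions per Mb in the ends (95% exact Poisson interval 8.59 to 9.21, 360 Mb) and 4.42 per Mb in the rest (4.32 to 4.53, 1562 Mb), a ratio of 2.01 (1.93 to 2.1). The ends thus covered 18.7% of the span and held 31.7% of the regions. These intervals cover counting error only. A rise of density towards the ends was known when these ends were chosen, so the ratio is a description without a test. Gene positions were not used here, and whether the density follows that of genes was not tested.

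The density ran from 1.20 regions per Mb in the first 20 Mb of chromosome 6 to 16.6 per Mb in the first 20 Mb of chromosome 2, a 13.8-fold span. The rests of the same chromosomes spanned 1.73-fold, with chromosome 10 lowest at 3.06 per Mb and chromosome 3 highest at 5.28. Each rest is a single average over 111 to 267 Mb, and averages over longer stretches vary less by construction. Stretches of 20 Mb within the rest were not measured, so the spans of ends and rests are not like for like. In 15 of the 18 ends the interval lay above that of the rest of the same chromosome, in 2 it overlapped it and in 1 it lay below. The densest end of chromosome 2 had 332 regions and was followed by the last 20 Mb of chromosome 6 with 272 regions, or 13.6 per Mb (12.0 to 15.3). Next came the first end of chromosome 5 with 12.1 per Mb (10.6 to 13.7), the last end of chromosome 5 with 11.4 (9.97 to 13.0) and the last end of chromosome 8 with 11 (9.59 to 12.6). In this order the interval of each of these 5 ends overlapped that of the next. Relative to its own rest, the last end of chromosome 6 stood highest at 3.55 times, ahead of the first end of chromosome 2 at 3.43 times and the last end of chromosome 10 at 3.33 times.

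**Figure D1:**
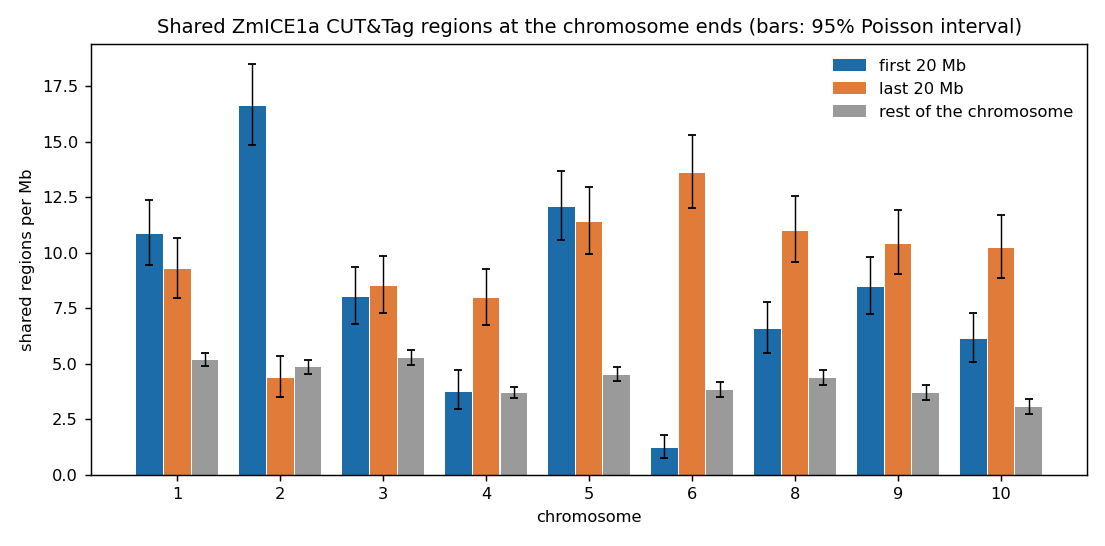
Density of shared regions (regions per Mb) in the first 20 Mb, the last 20 Mb and the rest of each of the 9 chromosomes, with 95% Poisson intervals as error bars. The first end of chromosome 2 reaches 16.6 per Mb, and the first end of chromosome 6 lies at 1.20 per Mb, below the rest of that chromosome at 3.83 per Mb.

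At 3 of the ends the density was not above that of the rest beyond counting error. The first end of chromosome 6 had 24 regions, 0.313 times the density of the rest of the chromosome (1.20 per Mb, 0.769 to 1.79, against 3.83 per Mb, 3.51 to 4.18). The last end of chromosome 2 had 87 regions, 4.35 per Mb (3.48 to 5.37) against 4.84 per Mb in its rest (4.55 to 5.16). The first end of chromosome 4 had 75 regions, 3.75 per Mb (2.95 to 4.70) against 3.70 per Mb in its rest (3.45 to 3.98). On chromosome 2 the lists differed in this: list 1 had 5.80 peaks per Mb in the last end against 6.22 in the rest, and list 2 had 8.55 against 7.26. In the first end of chromosome 6 both lists were sparse, with 40 list 1 peaks (2.00 per Mb, against 4.92 in the rest) and 52 list 2 peaks (2.60 per Mb, against 5.98).

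The ends of one chromosome were often unlike each other. On chromosomes 4, 6, 8 and 10 the interval of the last end lay above that of the first, on chromosome 2 that of the first end lay above the last, and on chromosomes 1, 3, 5 and 9 the intervals overlapped. Chromosome 6 had 24 regions in the first end and 272 in the last, and chromosome 2 had 332 in the first and 87 in the last. The closest pair was on chromosome 3, with 160 regions in the first end and 170 in the last. Summed over chromosomes, the first ends held 0.849 times as many regions as the last (0.791 to 0.910). That ratio rested on single chromosomes, since it was 0.99 without chromosome 6 and 0.692 without chromosome 2.

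Within the ends the outermost Mb was sparse and the densest zone lay a few Mb inside. The outermost 1 Mb of the 18 ends held 88 regions, 4.89 per Mb (3.92 to 6.02), and the next 1 Mb held 145, or 8.06 per Mb (6.80 to 9.48). Density was 13.2 per Mb (11.6 to 15.01) between 4 and 5 Mb from the end, where 238 regions lay. From there it was 10.0 per Mb between 5 and 10 Mb (9.37 to 10.7), 8.73 between 10 and 15 Mb (8.13 to 9.37) and 7.54 between 15 and 20 Mb (6.99 to 8.13). Beyond the limit it was 7.23 per Mb between 20 and 30 Mb (6.84 to 7.63) and 5.39 between 30 and 40 Mb (5.06 to 5.74). With both sides pooled, the intervals just inside and just outside the 20 Mb limit overlapped. Both sides were sparse at the tip and densest a few Mb inside: the first ends had 4.0 per Mb in the outermost Mb and 13.2 between 5 and 6 Mb, and the last ends had 5.78 per Mb in the outermost Mb and 14.1 between 4 and 5 Mb. Around the limit the sides differed. The first ends fell from 6.93 per Mb between 15 and 20 Mb (6.19 to 7.75) to 5.66 between 20 and 30 Mb (5.17 to 6.17). The last ends had 8.16 (7.34 to 9.03) and 8.8 (8.20 to 9.43).

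**Figure D2:**
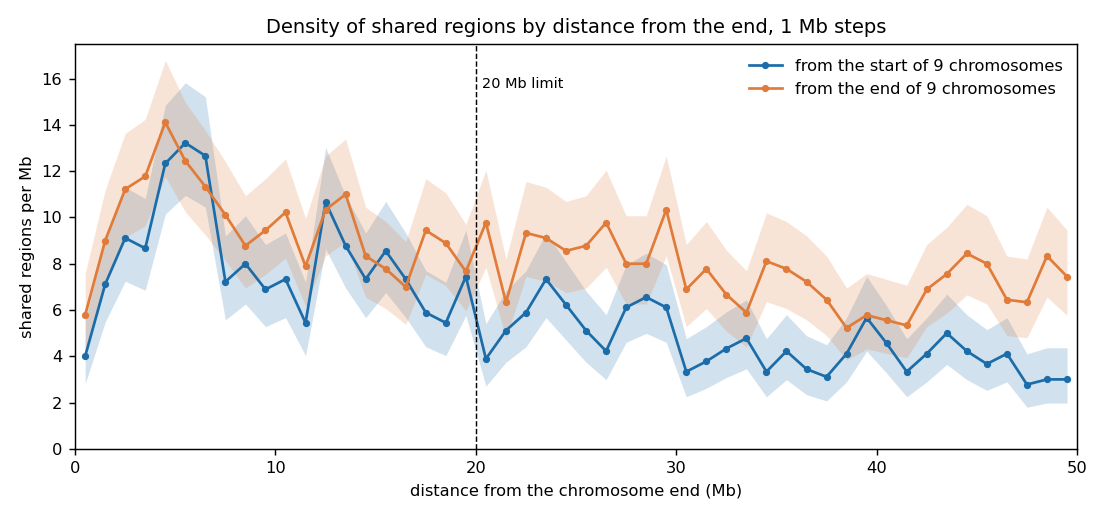
Shared regions per Mb in 1 Mb steps from the start and from the end of the 9 chromosomes, with 95% Poisson intervals as bands and the 20 Mb limit as a dashed line. Both lines are low in the outermost Mb (4.0 and 5.78 per Mb) and highest between 4 and 6 Mb (13.2 and 14.1 per Mb). The start is the first base and the end is the last peak end in either list, so the outermost steps are not like for like.

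At the first ends the outermost region lay between 117 kb (chromosome 2) and 651 kb (chromosome 9) from the first base. Each end had between 1 and 12 regions in its outermost Mb, with 12 at the last end of chromosome 9 and 1 each at the last ends of chromosomes 5 and 8. In 14 of the 18 ends this number was below the mean per Mb of the same end. The inward course differed as well, since 11 ends had more regions in the outer than in the inner 10 Mb. The last end of chromosome 4 was the steepest of the denser ends, with 134 regions in the outer and 25 in the inner 10 Mb. The last end of chromosome 3 ran the other way, with 53 and 117, and so did the first end of chromosome 8, with 41 and 90. The first end of chromosome 2 was even, with 159 and 173.

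In steps of 1 Mb the count per step ranged up to 31, and 17 of the 360 steps had no region. The fullest steps were 6 to 7 Mb from the first end of chromosome 5 with 31 regions, 4 to 5 Mb from the last end of chromosome 6 with 30, and 5 to 6 Mb from the first end of chromosome 2 with 29. Their list 1 medians were 59, 61 and 79 treatment fragments at the summit, against 66 over all distal regions, and their median list 1 folds were 6.10, 5.32 and 5.31, against 5.4. The medians of these 3 steps thus lay on both sides of those of all distal regions. Of the 17 empty steps 11 were in the first end of chromosome 6, 3 in the last end of chromosome 2, and 1 each in the first end of chromosome 4, the last end of chromosome 4 and the first end of chromosome 10.

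**Figure D3:**
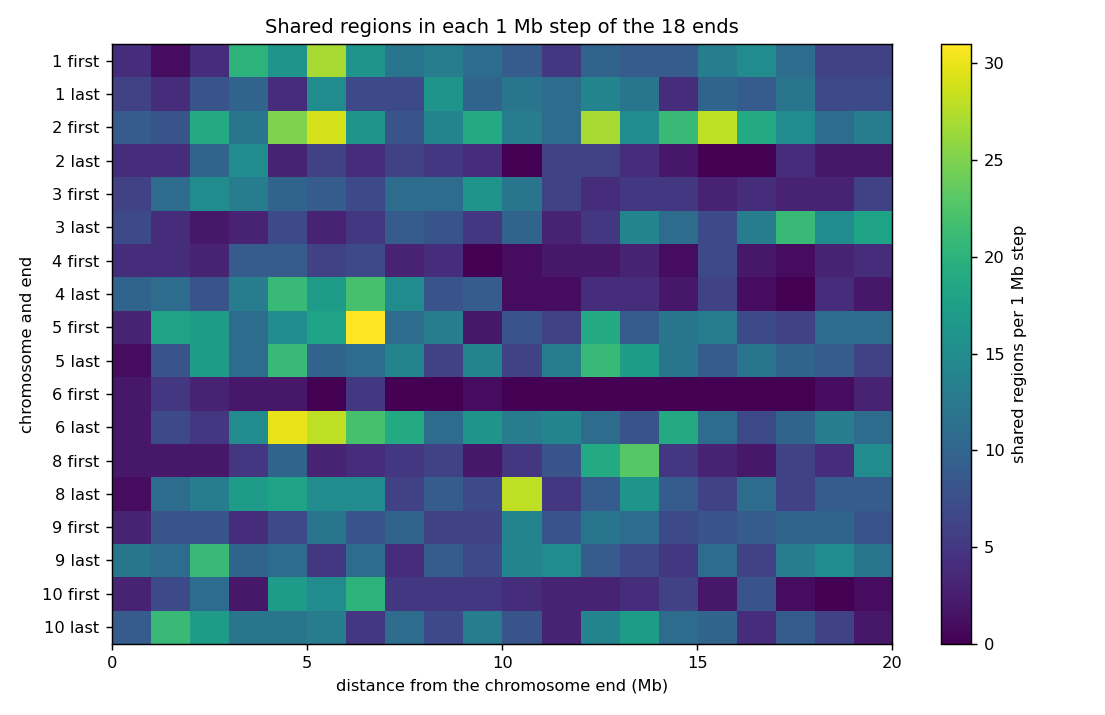
Number of shared regions in each 1 Mb step (colour) by distance from the chromosome end, for the first and the last end of the 9 chromosomes. The first end of chromosome 6 is empty in 11 of its 20 steps, and the fullest step, with 31 regions, is 6 to 7 Mb from the first end of chromosome 5.

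The emptiest stretch lay in the first end of chromosome 6. Between the region at 9559549 to 9560951 and the region at 18825365 to 18825930 (B73 version 4, as all coordinates here) no shared region was found over 9.27 Mb between summits. Each list had 2 peaks in that stretch, none of them shared. Of the flanking sites, the left one had folds of 11.8 and 8.66 in lists 1 and 2 from 106 and 76 treatment fragments, and the right one had 6.96 and 13.5 from 52 and 39. The 24 regions of this end had list 1 folds between 2.42 and 11.8 with a median of 6.02, and list 2 folds between 2.20 and 13.5 with a median of 5.39. These medians were the highest of the 18 ends in both lists. In list 1 the next highest was 5.98, in the last end of chromosome 3, and the lowest was 4.62. In list 2 the next highest was 5.38, in the first end of chromosome 4, and the lowest was 4.17. The rest of chromosome 3 was higher than all ends, at 6.42 and 5.94. The medians of the first end of chromosome 6 rest on 24 regions, whose single folds ran from low to high. How much of this stretch reads can be mapped to was not measured. The next longest stretches without a shared region were 3.26 Mb in the last end of chromosome 2, 2.38 Mb in the first end of chromosome 4 and 2.13 Mb in the first end of chromosome 10, and 7 of the 18 ends had one longer than 1 Mb.

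Sites in the distal ends also had closer neighbours. The median distance from a summit to the nearest other shared summit was 12.4 kb in the ends and 31.8 kb in the rest, and 46.4% of distal summits had one within 10 kb, against 36.8% in the rest. Within 2 kb the shares were 16.2% and 14.2%, and within 50 kb they were 72.2% and 57.6%. Such distances depend on the density, and no test was made of them. How far the density alone accounts for them was not measured.

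Site by site, the strength of distal regions and of the rest was not called different over the 9 chromosomes, which does not show that it is equal. The fold enrichment, which the caller gives as treatment over control with a pseudocount, had a median of 5.4 in the ends (interquartile range 4.10 to 7.34) and 5.53 in the rest (4.10 to 7.60) in list 1. In list 2 it was 4.86 in the ends (3.71 to 6.57) and 5.05 in the rest (3.74 to 7.0). Chromosome by chromosome, the mean log2 ratio of the medians, ends over rest, was -0.0097 ± 0.084 in list 1 and -0.031 ± 0.10 in list 2 (SD over 9 chromosomes). An exact sign-flip permutation test over the 9 chromosomes, two-sided and adjusted over the 11 quantities compared, gave adjusted p = 0.727 and 0.680. The single ratios lay between -0.15 and 0.077 in list 1 and between -0.19 and 0.085 in list 2. Chromosomes are parts of 1 genome and not replicates of a condition, and the smallest p that 9 of them allow is 0.00391.

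The fragments behind the fold were not called different either. The treatment fragments at the summit, solved from the deposited fold and p-value, had a median of 66 in the ends (interquartile range 43 to 98.3) and 63 in the rest (41 to 98) in list 1, and 54 (35 to 84) and 53 (34 to 83) in list 2. The mean log2 ratio was 0.060 ± 0.14 in list 1 and 0.019 ± 0.14 in list 2 (adjusted p = 0.662 and 0.727, the same exact test). The control background had a median of 7.0 fragments in the ends and 6.30 in the rest in list 1, and 9.86 and 9.47 in list 2, where it is scaled to the depth of the treatment. In list 1 the treatment fragments are given unscaled, whereas the fold uses them scaled by 0.650. Its mean log2 ratio was 0.11 ± 0.25 and 0.040 ± 0.29 (adjusted p = 0.662 and 0.727, exact sign-flip permutation). On chromosomes 2, 5, 6 and 8 the list 1 control medians were 7.0 in both ends and rest. These chromosomes therefore add almost nothing to the list 1 ratio, and the test rests on the others. Regions were 710 bp long at the median in the ends and 710 bp in the rest, and the longest reached 4171 bp in the ends and 4646 bp in the rest (mean log2 ratio 0.0093 ± 0.066, adjusted p = 0.727, exact permutation).

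In list 1, ends and rest lay furthest apart on chromosomes 1 and 3. On chromosome 1 the list 1 median was 76 treatment fragments in the ends and 64 in the rest, over a control of 8.0 and 6.0. Its fold was lower in the ends, at 5.09 against 5.66 in the rest. On chromosome 3 the ends had a median of 68 treatment fragments and the rest had 55, over a control of 6.0 and 4.0, and the fold was 5.80 in the ends and 6.42 in the rest. The other 7 chromosomes had list 1 fold medians of the ends between 5.16 and 5.67. Among single ends, the first end of chromosome 1 combined the highest median of treatment fragments (79 in list 1, 65 in list 2) with the highest control (10.0 and 13.9) and the lowest fold (4.62 and 4.17).

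**Figure D4:**
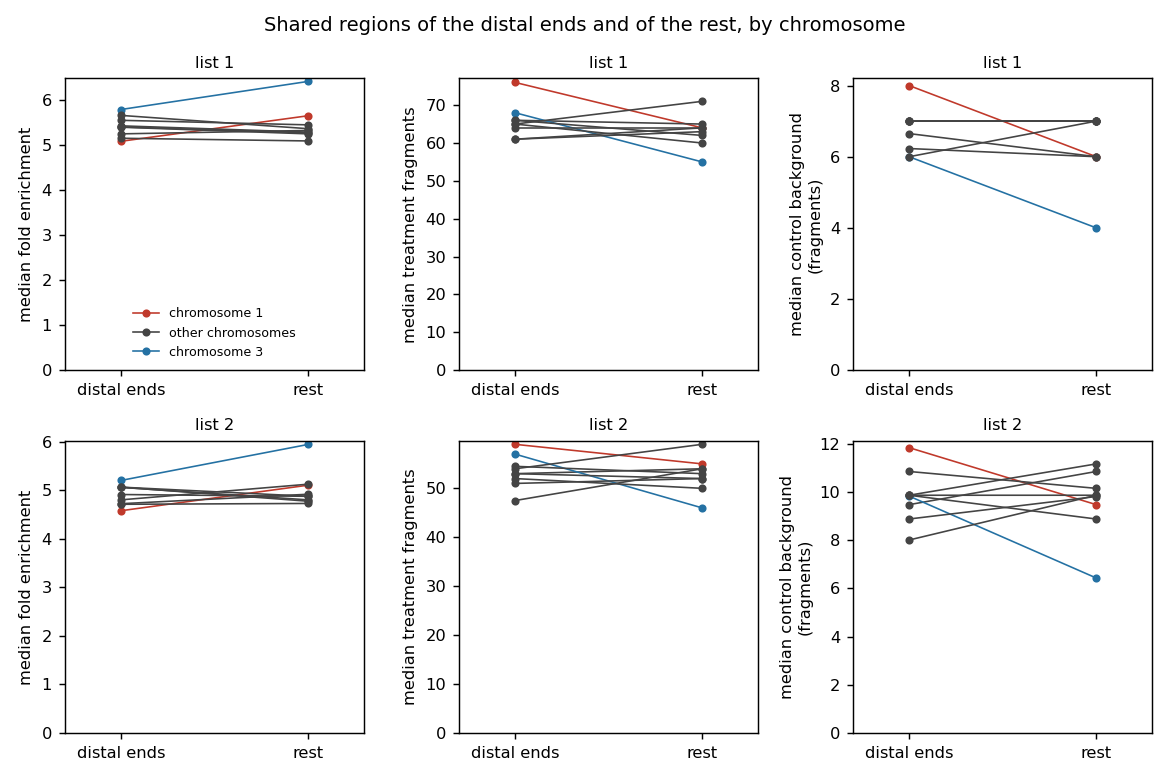
Median fold enrichment, treatment fragments and control background of the shared regions in the distal ends and in the rest, 1 line per chromosome, for list 1 (top) and list 2 (bottom). Chromosome 3 has the lowest control in its rest (4.0 fragments in list 1), and the lines of the other chromosomes run both ways.

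Very high folds made up a smaller share of the sites in the ends, by a margin that failed the adjustment. A lower fold (the lower of the list 1 and list 2 folds of a region) above 10 was found in 99 of 3204 distal regions, 3.09% (95% exact binomial interval 2.52 to 3.75), and in 355 of 6910 regions of the rest, 5.14% (4.63 to 5.68). The share over all regions of the 9 chromosomes was 4.49%. The ends had the lower share on 7 of 9 chromosomes, with a mean difference of -1.90 ± 2.14 percentage points (SD over 9 chromosomes; p = 0.0195, adjusted p = 0.215, exact sign-flip permutation, two-sided). Chromosome 3 had the widest gap, 4.85% in the ends against 11.6% in the rest, and without it the mean difference was -1.29. Chromosome 5 had 3.62% in both, and chromosome 9 had 4.24% in the ends and 4.07% in the rest. Benjamini-Hochberg adjustment of the same exact permutation test gave p = 0.043 with ends of 10 Mb and p = 0.043 with a reciprocal overlap of 50%, and 0.172 to 0.530 under the other settings of distance and threshold.

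Sites whose control was at the genome-wide background, where the caller's floor sets the fold, were also a smaller share in the ends. They made up 56 of the distal regions in list 1 (1.75%) and 201 of the rest (2.91%), with 2.54% over all regions. In list 2 they were 25 of the distal regions (0.780%) and 139 of the rest (2.01%), with 1.62% over all. Both shares draw on the control, which is the divisor of the fold, and its part in the lower share of high folds was not tested. Among the 100 regions with the highest lower folds on the 9 chromosomes 20 were distal, and among the 100 with the most list 1 treatment fragments 33 were, next to 31.7% of all regions.

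The 10 distal regions with the highest lower folds lay in 7 of the 18 ends, 4 in first ends and 6 in last ends. The strongest was on chromosome 1, 298605214 to 298606174, 8.15 Mb from the last end. It had folds of 50.6 and 53.0 from 125 (95% Poisson interval 104 to 149) and 100 (81.4 to 122) treatment fragments, and it was the only distal one among the 10 highest of the 9 chromosomes. In both lists its control was at the genome-wide background (0.626 and 0.905 fragments), so the caller's floor sets both of its folds. The other 9 had lower folds. Chromosome 4, 6202630 to 6203910, had folds of 28.6 in list 1 and 24.3 in list 2 from 84 (67.0 to 104) and 95 (76.9 to 116) fragments. Chromosome 8, 13645808 to 13646578, had folds of 20.8 and 20.4 from 53 (39.7 to 69.3) and 47 (34.5 to 62.5) fragments, and another shared summit stood 1.51 kb from it. These were the only 3 of the 3204 distal regions with a lower fold above 20, against 22 of the 6910 regions of the rest.

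Chromosome 1 had a second strong site in the same end, at 292177168 to 292179418. It was 2251 bp long, with folds of 22.6 and 19.9 from 82 and 66 treatment fragments. Chromosome 9, 153485349 to 153486318, had folds of 19.7 and 19.9 from 50 and 37 fragments. Chromosome 4 gave 2 more of the 10. The one at 8106533 to 8107152 lay inward of the stronger one in the first end, with folds of 17.8 and 20.8 and summits at the same base in both lists. The one at 243563739 to 243564589 in the last end had folds of 17.03 and 18.3. Chromosome 5 gave 3, at 213284263 to 213285000 (20.7 and 18.02), at 17468784 to 17469911 (18.3 and 16.3) and at 218496516 to 218497922 (16.2 and 17.3). The folds of the lists were within 1.5 times of each other at all 10. The control was between 0.626 and 3.0 fragments in list 1 and between 0.905 and 4.74 in list 2 at these sites. It was at the genome-wide background at the strongest site in both lists, and in list 2 also at the site on chromosome 9. Which genes lie there was not analysed.

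The highest lower fold of an end was between 8.63 and 50.6. The lowest of these maxima were in sparse ends: 8.63 in the last end of chromosome 2 and 9.76 in the first end of chromosome 6. These ends held only 87 and 24 regions, and a maximum over fewer regions tends to be lower by construction. The first end of chromosome 4, which was as sparse as the rest of its chromosome, nevertheless held 2 of the 10 regions above.

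The sites with the most fragments were other ones. Chromosome 8, 7618092 to 7619624, had 357 treatment fragments in list 1 (321 to 396) and 318 in list 2 (284 to 355). Its control background was 93.0 and 137. Its folds, taken after list 1 fragments are scaled by 0.650, were 2.48 and 2.31. Chromosome 3, 886147 to 887422, less than 1 Mb from the first end, had 337 (302 to 375) and 298 (265 to 334) fragments with folds of 4.31 and 3.70. Chromosome 6, 160539486 to 160543093, had 331 (296 to 369) and 297 (264 to 333) with folds of 2.35 and 2.26 over 3608 bp. Across the distal regions the control background rose with the treatment fragments, with a Spearman rho of 0.818 in list 1 over 3204 regions. Fold and fragments were nearly unrelated, with a rho of -0.158 in list 1 and -0.106 in list 2. These are correlations across regions of the same libraries, and the fold is made from the same fragments and control. Every region also had to pass the caller's threshold of treatment over control, which ties treatment to control in part by construction. They are therefore given as a description.

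**Figure D5:**
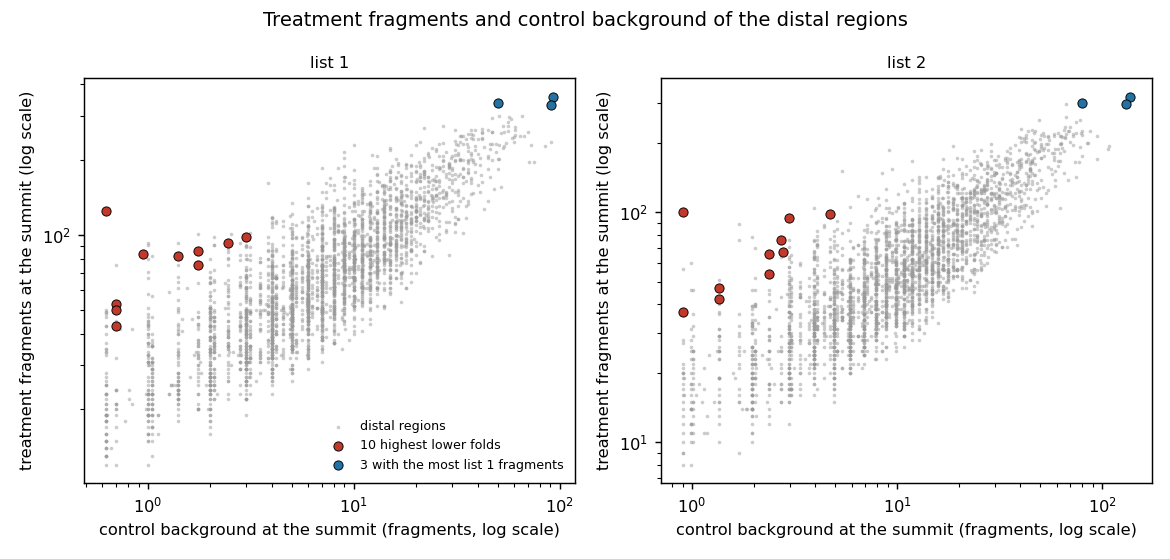
Treatment fragments against control background at the summit of the 3204 distal regions (log axes) in list 1 and list 2, with the 10 highest lower folds in red and the 3 regions with the most list 1 fragments in blue. The red sites have a control of at most 3.0 fragments in list 1 and 4.74 in list 2, and the blue sites have 50 or more in list 1.

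The share of peaks found again in the other list was called different between ends and rest in neither list. In list 1, 3268 of 4032 distal peaks had a list 2 partner (81.1%, 95% exact binomial interval 79.8 to 82.3), against 7032 of 8811 in the rest (79.8%, 79.0 to 80.6) and 80.2% over all. In list 2, 3247 of 4907 distal peaks had a list 1 partner (66.2%, 64.8 to 67.5), against 7000 of 10630 in the rest (65.9%, 64.9 to 66.8) and 66.0% over all. The mean difference over chromosomes was 1.23 ± 1.63 percentage points in list 1, with the ends higher on 7 of 9 chromosomes. In list 2 it was 0.682 ± 1.86, with the ends higher on 5. The exact sign-flip permutation test gave p = 0.0625 and 0.301 (adjusted p = 0.344 and 0.662). The ± is the SD of single chromosomes and not the error of the mean. By end the share ran from 62.5% to 85.9% in list 1 and from 46.2% to 71.9% in list 2. Both minima were in the first end of chromosome 6, where 25 of 40 list 1 peaks and 24 of 52 list 2 peaks had a partner. The last end of chromosome 2 was next lowest in list 2, with 91 of 171 peaks (53.2%, 45.4 to 60.9). The list 1 maximum was in the first end of chromosome 2, the densest end, with 340 of 396 peaks.

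Peaks without a partner had fewer fragments, in the ends as in the rest. In list 1 the 764 unpaired distal peaks had a median of 31 treatment fragments and the 3268 paired ones had 66, against 30 and 63 in the rest. In list 2 the 1660 unpaired distal peaks had 23 and the 3247 paired ones 54, against 23 and 53 in the rest. The median folds of unpaired and paired distal peaks were 5.32 and 5.38 in list 1, and 4.71 and 4.86 in list 2.

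The summits of a shared region are close in part by construction, since its peaks overlap. The summits of the lists were 36 bp apart at the median in the ends and 37 bp in the rest, and 81.0% of the distal regions had them within 100 bp, with a largest distance of 1844 bp (mean log2 ratio of the medians -0.041 ± 0.19, adjusted p = 0.727, exact sign-flip permutation). A single peak of each list made up 96.8% of the distal regions and 97.1% of the rest. Regions longer than 2 kb numbered 54 in the ends (1.69%) and 100 in the rest (1.45%). At 73.3% of the distal regions the folds of the lists were within 1.5 times of each other, against 73.9% in the rest. As a description, the rho between the lists was 0.630 for the fold and 0.953 for the treatment fragments over the 3204 distal regions.

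The region closest to a limit on the inside, chromosome 8, 161009319 to 161010279, was 0.229 kb from it, with folds of 8.96 and 4.83 from 95 and 74 treatment fragments. The closest on the outside, chromosome 1, 286751513 to 286752075, was 4.64 kb from it, with folds of 6.34 and 6.86 from 57 and 60 fragments.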

How the data were processed

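The submitters' processing notes list MACS2 2.1.0, SAMtools 1.12, Bowtie2 2.4.1 and fastp 0.23.1, and their settings are not given in the sources used here. The authors deposited 2 peak lists, each named for 1 mutant and 1 wild-type library. Each peak has a deposited score (10 times the −log10 q), a fold enrichment (a linear ratio with a pseudocount), and a −log10 p-value and −log10 q-value of its summit. Contig names in the lists are those of B73 version 4. Neither the genome nor genes of that build were used here, so no sequence is shown.

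Treatment fragments and control background were solved from fold and p-value for each peak (up to 1000 fragments, tolerance 0.001 in −log10 p). All 14475 and 17518 peaks gave whole fragments (100%, within 0.01), but 53 and 374 of them had a second whole solution, and the one closest to a whole number was kept. On simulated peaks 99.8% (list 1, 2357 peaks) and 99.4% (list 2, 2230 peaks) of fragment numbers were recovered. The simulation paired fragment numbers and controls at random and left out low ratios of treatment to control. Recovery at the lowest folds was therefore not checked. The list 1 treatment had been scaled by 0.650, so it was 1.54 times as deep as its control. Total depth is unknown. Intervals (95%, exact Poisson or binomial) cover counting error only. Whether reads copied by PCR count as separate fragments is not known from the sources used here.

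Ends and rest were compared by the difference per chromosome, with an exact sign-flip permutation test over 9 chromosomes, two-sided, and Benjamini-Hochberg adjustment over 11 quantities (Python 3.11.15, NumPy 2.4.6, SciPy 1.17.1, pandas 2.3.3). The test was checked on simulated data. Regions named are the 10 with the highest lower fold, the highest of each end (as a range), the 3 with the most list 1 fragments, the 3 fullest 1 Mb steps and the 2 closest to a limit. Gaps were described after they had been seen. The members and quantities were chosen with earlier results of these data known. Alternatives were ends of 10 Mb, of 30 Mb or of 10% of the chromosome, a −log10 q of at least 5, a reciprocal overlap of 50%, list 2 summits, the ratio without pseudocount, single lists, and each chromosome left out. Gene starts, E-box words and GC content, also planned, were not analysed here.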

Additional observations from a re-analysis of the deposited data

How the results depend on the processing

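Of 79 alternative values that leave out no chromosome, 73 kept the direction and the side of the threshold. The deficit of regions with a lower fold above 10 passed the adjusted threshold at -2.59 percentage points with ends of 10 Mb and at -2.03 with a reciprocal overlap of 50%. The log2 length ratio reversed to -0.0015 with ends of 10 Mb. The ratio of first to last ends moved to 0.784 with ends of 30 Mb. The median distance to the next region moved to 14.1 kb with a −log10 q of at least 5 and to 13.9 kb with a reciprocal overlap of 50%. Stricter peaks and overlaps leave fewer regions, which lengthens distances by construction, and the cause of the other changes was not tested.

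With each chromosome left out in turn, the mean log2 ratio of the fold ran from -0.021 to 0.0082 in list 1 and from -0.046 to -0.011 in list 2. That of treatment fragments ran from 0.029 to 0.083 in list 1 and from -0.018 to 0.044 in list 2. That of the control ran from 0.049 to 0.15 and from -0.031 to 0.083, that of length from -0.0054 to 0.019 and that of summit distance from -0.074 to 0.0052. Of these uncalled ratios, the sign turned without chromosome 3 for the list 1 fold, list 2 fragments, list 2 control and summit distance, without chromosome 1 for the list 1 fold and length, and without chromosome 6 for length. The share with a partner differed by 0.874 to 1.49 percentage points in list 1 and by 0.339 to 1.03 in list 2, and the share with a lower fold above 10 by -2.15 to -1.29. The density ratio ran from 1.94 to 2.09, that of first to last ends from 0.692 to 0.99, and the distance to the next region from 11.5 to 13.2 kb. No adjusted p of these was below 0.05, where the lowest was 0.0859. Single lists gave a density ratio of 1.99 and 2.00.

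No paired analysis was possible because each deposited list is named for both a mutant and a wild-type library, with unstated roles, and no result compares the genotypes.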
